A study of Mus musculus with 15 samples.

Results

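Genes for 10 hormones of the hypothalamus and the pituitary were followed library by library in bulk RNA-seq of mouse thalamus. They were taken by name from the deposited values, and 10 of 10 listed genes were found among the 29659 genes of each library. The hypothalamic members are Oxt, Avp, Trh, Pmch, Hcrt, Pomc and Agrp, and the pituitary members are Gh, Prl and Cga; Pomc is also a gene of the pituitary. The question put to them was how much neighbouring hypothalamic or pituitary tissue the thalamus libraries might hold, and how that differed between the genotypes.

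All mice were 4.5 months old and carried human APOE4 knock-in alleles (APOE4+/+) in place of mouse Apoe. The 5EL mice (n = 5) were 5xFAD/APOE4+/+/Lilrb4a+/+ and the 5ELKO mice (n = 4) were 5xFAD/APOE4+/+/Lilrb4a-/-. The EL (n = 3) and ELKO mice (n = 3) were APOE4 knock-in animals without 5xFAD that kept or lacked Lilrb4a. 5xFAD denotes amyloid-producing transgenes that the neuronal Thy1 promoter drives, and Lilrb4a encodes an inhibitory receptor of microglia. The mice were perfused with PBS, the right hemisphere was cut into regions, and RNA came from the thalamic piece. The sources do not say how the cut was placed. A further 5ELKO library of the study was not analysed here.

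The thalamus lies directly above the hypothalamus. Oxytocin and vasopressin are made by large neurons of the paraventricular and supraoptic nuclei, thyrotropin-releasing hormone by paraventricular neurons, melanin-concentrating hormone (Pmch) and orexin (Hcrt) by separate neurons of the lateral hypothalamus, and POMC and AgRP by opposing neurons of the arcuate nucleus. Growth hormone, prolactin and the common alpha subunit of the glycoprotein hormones (Cga) are made by different endocrine cells of the anterior pituitary. Each of these genes is strongly expressed in few cells. Trh is also expressed by neurons of the reticular thalamus.

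The values are log2 expression values as deposited, in which low genes were drawn close together. Fold changes are therefore understated where a gene is low, and a flat low gene may have held few or no reads. The number of reads behind each value is unknown. The 14 thalamus marker genes were high in all libraries, with a mean log2 value of 12.18 to 12.49. Lilrb4a lay between 2.326 and 2.331 in the 7 libraries of the knockout groups and between 2.345 and 2.662 in the other 8. Some libraries stood apart. Ttr, the main choroid plexus transcript, reached 13.71 in 5EL replicate 1 and 14.66 in ELKO replicate 2 against at most 10.31 elsewhere, and mouse Apoe was 10.90 in ELKO replicate 1 against 5.92 to 6.37 elsewhere, which goes against its label. EL replicate 3 was the lowest library for most lists of genes from outside the relay nuclei. Differences that these libraries carry are also given without them.

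Oxt and Avp lie side by side on chromosome 2 (GRCm38), Oxt at chr2:130576173-130577054 on the forward strand and Avp at chr2:130580620-130582554 on the reverse strand. Their ends are 3565 bases apart and point at each other. Both genes have 3 exons and encode a nonapeptide hormone together with its neurophysin carrier. Since their levels moved together, the 250 bases before each RefSeq start (GRCm38.p6) are shown in transcript direction. Capitals mark the motif CATAAA, which resembles the core promoter element of many genes, and the motif AGGTCA, the half-site of nuclear receptors, each searched on both strands.
Oxt, chr2:130575919-130576168, forward strand: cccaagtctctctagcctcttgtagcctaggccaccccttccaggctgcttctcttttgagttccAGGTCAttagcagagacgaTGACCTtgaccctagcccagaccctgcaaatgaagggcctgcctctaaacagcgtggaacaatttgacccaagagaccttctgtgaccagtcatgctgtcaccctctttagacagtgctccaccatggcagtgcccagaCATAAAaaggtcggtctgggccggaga
Avp, chr2:130582589-130582838, reverse strand: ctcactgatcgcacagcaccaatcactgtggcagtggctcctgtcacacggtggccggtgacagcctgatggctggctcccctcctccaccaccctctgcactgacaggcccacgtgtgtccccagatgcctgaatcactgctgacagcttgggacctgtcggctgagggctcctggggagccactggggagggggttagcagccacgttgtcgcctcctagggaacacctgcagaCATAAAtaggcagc
Both promoters held 1 copy of CATAAA, which 10.8% of the 32536 promoters of this length hold. Oxt held AGGTCA at 2 places and Avp at 0, against 14% of all promoters with it. The motifs were chosen after the sequences were seen, and a match is only a match of letters. Oxt and Avp also share a run of 127 bases within the coding sequence of both transcripts:
Oxt and Avp, shared run: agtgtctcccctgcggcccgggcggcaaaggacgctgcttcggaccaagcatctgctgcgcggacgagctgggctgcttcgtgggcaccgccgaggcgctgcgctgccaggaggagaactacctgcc
It covers bases 156 to 282 of the 537 in the Oxt transcript and bases 144 to 270 of the 577 in the Avp transcript. Of the 50-base words of each transcript, 15.98% in Oxt and 14.77% in Avp occur in the other gene. Reads from this run could have been dropped, so part of each value is uncertain.

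Oxt was the most uneven member. Its log2 values in 5EL replicates 1 to 5 were 6.16, 9.62, 10.27, 6.16 and 6.35, and in 5ELKO replicates 1 to 4 they were 7.20, 6.28, 9.04 and 8.61. In EL replicates 1 to 3 they were 7.69, 6.38 and 6.09, and in ELKO they were 9.51, 7.39 and 6.12. High and low libraries occurred in each genotype, and the 4 groups overlapped. The highest library, 5EL replicate 3, lay 4.18 above the lowest, EL replicate 3, an 18.1-fold difference, and 8 of 15 libraries lay at least 1 above the lowest. In bulk tissue, fewer cells of a type and less RNA per cell cannot be told apart.

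Avp, the antidiuretic hormone gene, had nearly the same order of libraries. Its values were 5.76, 8.18, 8.54, 5.80 and 6.06 in 5EL and 6.81, 6.07, 7.14 and 7.24 in 5ELKO. They were 6.69, 6.31 and 5.70 in EL and 8.03, 6.42 and 5.73 in ELKO. The libraries spanned 2.84, or 7.18-fold, and all groups overlapped. Trh (chr6:92242061-92244650), which drives thyrotropin release, spanned 1.71, or 3.28-fold, on a floor nearer to the highest values. Its values were 5.97, 7.31, 7.52, 6.46 and 6.46 in 5EL, 6.50, 6.56, 7.15 and 7.22 in 5ELKO, 6.24, 6.47 and 5.81 in EL, and 7.27, 6.47 and 5.91 in ELKO. Oxt, Avp and Trh had the same 5 highest libraries, which were 5EL replicates 2 and 3, ELKO replicate 1 and 5ELKO replicates 3 and 4.

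**Figure D1:**
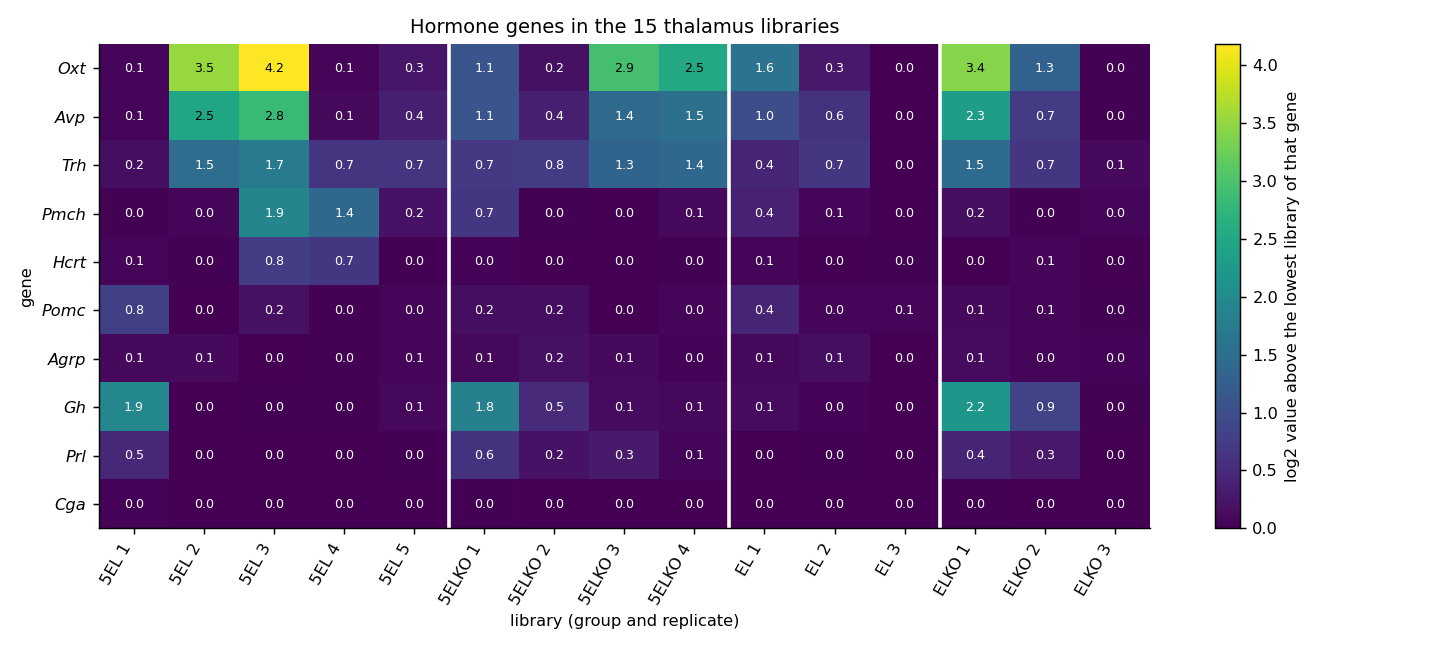
Each cell gives the log2 value of a gene (row) above its own lowest library, for the 15 libraries (columns, split by genotype). Oxt, Avp and Trh are raised in the same 5 libraries, Pmch and Hcrt in 5EL replicates 3 and 4, and Gh most in ELKO replicate 1, 5EL replicate 1 and 5ELKO replicate 1.

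Pmch and Hcrt, the genes of the lateral hypothalamus, were highest in 5EL replicate 3, like Oxt, Avp and Trh, and next in 5EL replicate 4, which was not among the 5 libraries above. Pmch was 4.06, 4.08, 5.94, 5.42 and 4.23 in 5EL and 4.69, 4.06, 4.04 and 4.13 in 5ELKO. It was 4.42, 4.10 and 4.03 in EL and 4.20, 4.06 and 4.08 in ELKO. Only 5EL replicates 3 and 4 lay more than 1 above the lowest library, and the groups overlapped. Of the 749 exon bases of Pmch (chr10:88091072-88092375), 435, or 58.1%, overlap exons of Parpbp on the other strand, and the counting ignored strand. Parpbp itself lay between 2.62 and 2.80 in all libraries.

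Hcrt (chr11:100761069-100762931) was 3.52 and 3.43 in 5EL replicates 3 and 4 and between 2.76 and 2.84 in the other 13 libraries. These were the same libraries as for Pmch. Hcrt reached the filter level of 3.32 in these 2 libraries only and was not tested. 5EL replicate 3 was high in Oxt, Avp, Pmch and Hcrt, whereas 5EL replicate 4 was high in Pmch and Hcrt with Oxt at 6.16, and 5EL replicate 2 was high in Oxt with Pmch at 4.08.

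Of the genes of the arcuate nucleus, Pomc spanned 0.80 and Agrp 0.19. Pomc, the precursor of ACTH and melanocortins (chr12:3954951-3960642), was 6.04, 5.25, 5.44, 5.28 and 5.30 in 5EL and 5.40, 5.41, 5.25 and 5.30 in 5ELKO. It was 5.68, 5.30 and 5.33 in EL and 5.36, 5.31 and 5.28 in ELKO. The highest libraries were 5EL replicate 1 and EL replicate 1, and the groups overlapped. Agrp, whose peptide blocks melanocortin receptors, stayed between 3.49 and 3.68 in all 15 libraries, a range of 0.19. Of its 1013 annotated exon bases, 11.3% overlap exons of Ctcf or Gm5914.

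Gh, the growth hormone gene (chr11:106300271-106301865), was the most uneven pituitary member. It was 6.69, 4.76, 4.78, 4.78 and 4.85 in 5EL and 6.58, 5.26, 4.89 and 4.85 in 5ELKO. It was 4.88, 4.8 and 4.77 in EL and 6.97, 5.62 and 4.79 in ELKO. The 3 libraries at least 1 above the lowest were ELKO replicate 1, 5EL replicate 1 and 5ELKO replicate 1, and none of the 3 EL libraries exceeded 4.88. The groups overlapped, and the span was 2.21, or 4.63-fold. Of the 5 libraries highest in Gh, 5EL replicate 1 and ELKO replicate 2 were also those high in Ttr and ELKO replicate 1 that high in mouse Apoe. Over all libraries Gh gave r = 0.426 and rho = 0.436 with the mean of the 12 choroid plexus genes (adjusted permutation p = 0.164 and 0.236), with r = 0.633 in the libraries with 5xFAD and 0.247 in those without. Their part in the Gh values was not tested.

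Prl, the prolactin gene (chr13:27057570-27065205), was 3.80, 3.32, 3.33, 3.33 and 3.34 in 5EL and 3.93, 3.53, 3.62 and 3.37 in 5ELKO. It was 3.33, 3.34 and 3.33 in EL and 3.75, 3.60 and 3.33 in ELKO. Prl was thus highest in the 3 libraries that were highest in Gh, and its lowest libraries lay at the filter level of 3.32. Its promoter is shown for the motif ATGNATA, which the pituitary factor POU1F1 reads, and TATAAA (both strands, in capitals, with 2 overlapping copies of TATAAA on opposite strands).
Prl, chr13:27057320-27057569, forward strand: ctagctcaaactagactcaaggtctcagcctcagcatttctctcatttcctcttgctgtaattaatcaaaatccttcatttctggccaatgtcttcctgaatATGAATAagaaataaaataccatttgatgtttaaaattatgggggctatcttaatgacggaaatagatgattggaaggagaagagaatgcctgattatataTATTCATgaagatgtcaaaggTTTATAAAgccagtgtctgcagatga
ATGNATA occurred 2 times in it, and 7.81% of all promoters hold it, against 12.3% for TATAAA. Promoters of Gh and Agrp were not analysed here. Cga (chr4:34893779-34907370) was at -0.68 in 5EL replicate 1, -0.69 in 5ELKO replicate 1, -0.70 in ELKO replicate 1, -0.71 in 5ELKO replicate 2 and -0.72 in the other 11 libraries, below the filter throughout. The 3 highest libraries were those highest in Gh, at a range of 0.04. Of the exon bases of Cga, 32.0% overlap Platr9 on the other strand.

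Levels of different genes were compared per kilobase of exon. The mean log2 value per kilobase was 8.42 for Oxt, 7.49 for Avp, 6.15 for Trh, 5.50 for Gh, 5.00 for Pomc, 4.79 for Pmch, 3.55 for Agrp, 3.30 for Hcrt, 2.99 for Prl and -0.64 for Cga. Oxt was thus the highest member per length and Cga the lowest. The steps from Oxt to Avp, from Trh to Gh, from Gh to Pomc and from Pomc to Pmch were smaller than the SD within groups of at least 1 gene of the pair.

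**Figure D2:**
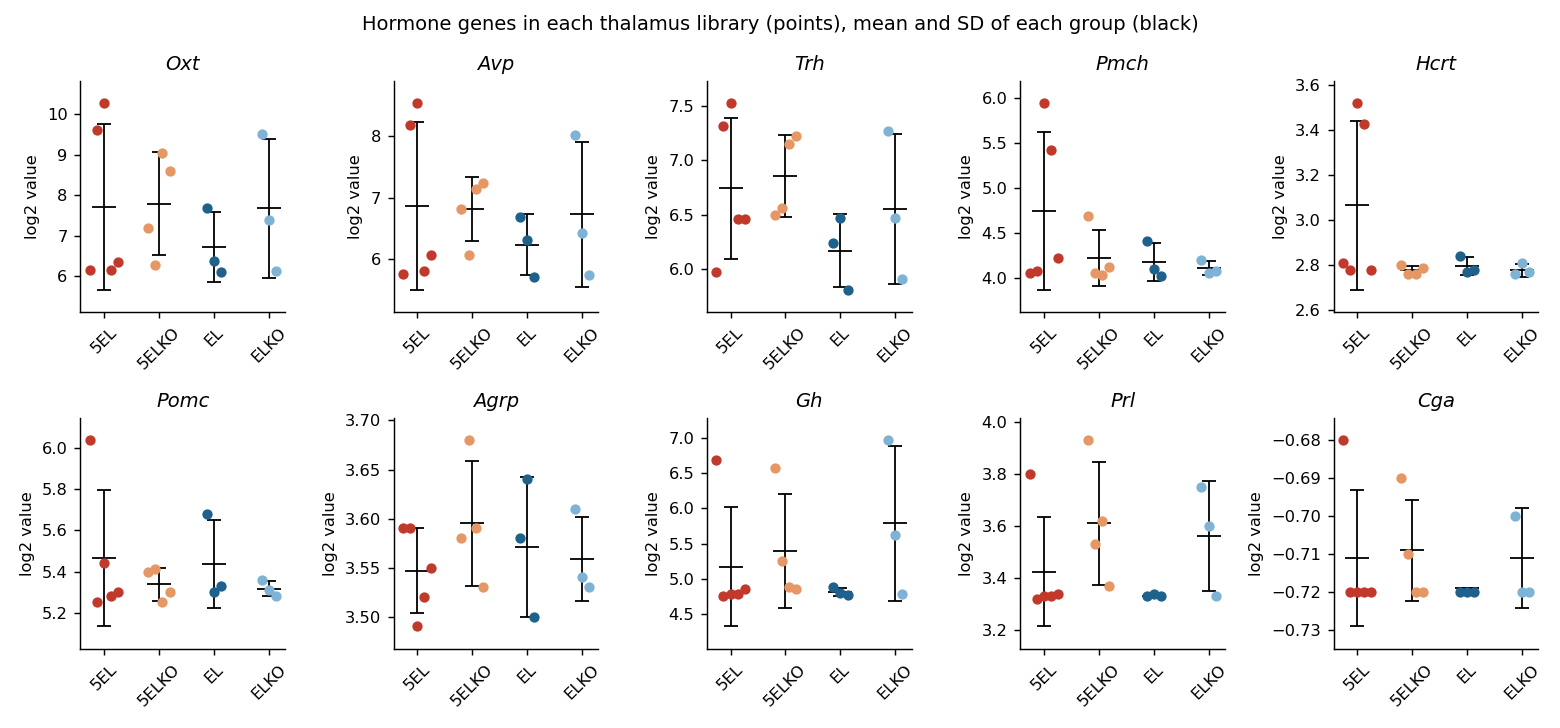
Log2 values of the 10 genes in each library (points) of the 4 genotypes, with the group mean and SD in black and an axis of its own for each gene. In each of the 4 comparisons made the groups overlap for every gene. Trh and Prl lie higher in all 5ELKO than in all EL libraries, which differ in both 5xFAD and Lilrb4a and were not compared. This pair of groups was noticed only after every pair was looked at. The share of all genes apart between these groups is not given here, so nothing can be read from it.

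The spread of Oxt, Avp, Gh, Pmch and Trh between libraries of the same genotype was among the largest of all genes. The SD within groups was 1.62 for Oxt, which ranked 2 of 15804 genes after Ttr, and 1.03 for Avp, which ranked 5. It was 0.81 for Gh (rank 11), 0.56 for Pmch (rank 60) and 0.55 for Trh (rank 68), against a median of 0.098 over all genes. Pomc (0.22, rank 848) and Prl (0.20, rank 1240) were less uneven, and Agrp (0.055, rank 14524) varied less than most genes. Hcrt and Cga did not pass the filter and were not ranked. The members were chosen with earlier results of these data known, which bears on these ranks.

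**Figure D3:**
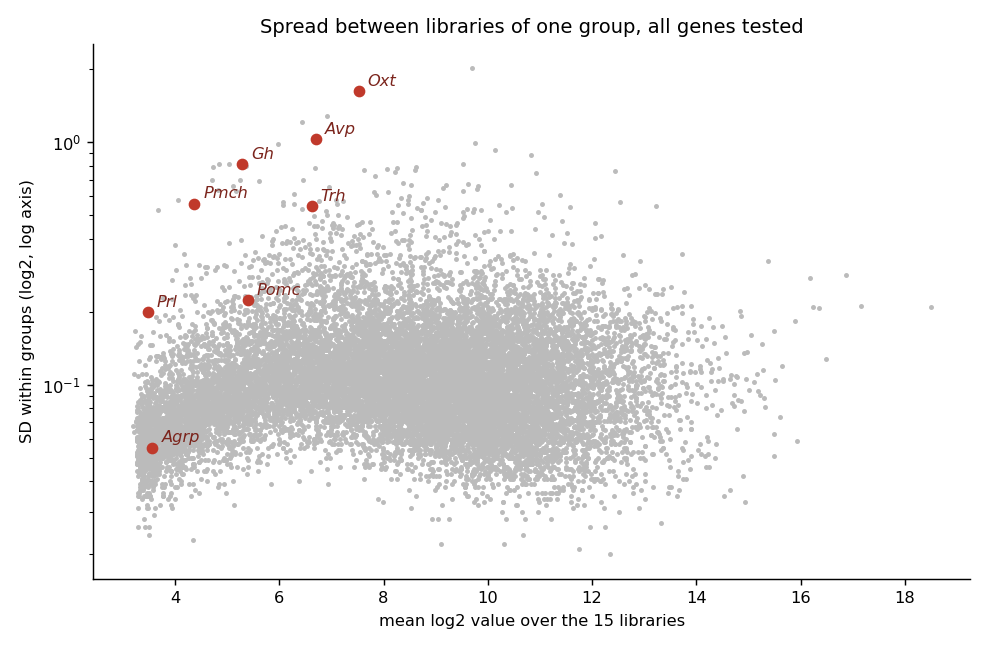
SD within groups (log axis) against the mean log2 value for the 15804 genes tested, with the 8 hormone genes that passed the filter in red. Oxt, at an SD of 1.62, lies above all genes but Ttr, and Agrp lies in the bulk.

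The genes fell into sets that were high in the same libraries. The 45 pairs of members were compared over the 15 libraries with Pearson's r and Spearman's rho, two-sided permutation tests and Benjamini-Hochberg adjustment over the 45. Oxt and Avp had r = 0.974 and rho = 0.982 (permutation p = 1e-05 for each, the smallest these permutations can give, and adjusted p = 0.00045 and 0.00015). Without the 2 libraries farthest from the Oxt median r was 0.957, and it was 0.973 within the 9 libraries with 5xFAD and 0.975 within the 6 without. The shared run of 127 bases bears on this pair, and its part was not tested.

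Trh correlated with Oxt at r = 0.902 and rho = 0.875 (permutation p = 4e-05 and 8e-05, adjusted 0.0006 and 0.0009), and r was 0.844 without the 2 farthest libraries. With Avp it gave r = 0.910 and rho = 0.918 (permutation p = 2e-05 and 1e-05, adjusted 0.00045 and 0.00015), and r was 0.864 without them. Within the libraries with and without 5xFAD these values were 0.943 and 0.890 for Oxt and 0.917 and 0.951 for Avp. Trh thus followed Oxt and Avp in both sets of libraries.

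Gh and Prl formed another set, with r = 0.910 and rho = 0.911 (permutation p = 0.00012 and 1e-05, adjusted 0.00135 and 0.00015). Here r was 0.838 without the 2 farthest libraries, 0.913 with 5xFAD and 0.971 without. Cga correlated with Gh at r = 0.904 (permutation p = 0.0005, adjusted 0.00375) and with Prl at r = 0.842 (permutation p = 0.00059, adjusted 0.00379), but its rho of 0.618 and 0.579 did not pass (adjusted permutation p = 0.125 and 0.147). Taken as deviations from the group means, rho was 0.871 and 0.661 and passed (adjusted permutation p = 0.00112 and 0.0481). For Gh and Cga r was 0.877 without the 2 farthest libraries, 0.977 with 5xFAD and 0.927 without, and for Prl and Cga these values were 0.707, 0.853 and 0.815. Most Cga values sit on its floor. Subtracting a group mean that a high library raised lowers the other libraries of that group in both genes. The rho of the deviations therefore does not measure agreement among the libraries on the floor. The permutations also moved deviations freely between groups, although subtracting group means ties the deviations of a group together. Permutation p-values of deviations, here and below, thus tend to be too small, and those near 0.05 are uncertain.

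Pmch and Hcrt had r = 0.953 (permutation p = 0.00037, adjusted 0.00333) and rho = 0.568 (adjusted permutation p = 0.147). Without the 2 farthest libraries r was 0.426, and those were 5EL replicates 3 and 4, on which the pooled r rests. Within the libraries with and without 5xFAD r was 0.955 and 0.618. Taken as deviations from the group means, r was 0.944 and rho 0.829 (adjusted permutation p = 7.5e-05 and 0.00252), with r = 0.867 without the 2 libraries farthest on that scale. Most Hcrt values sit on a floor too, so this rho has the limit given for Cga. The other 38 pairs passed for neither r nor rho. Over deviations from the group means 37 pairs passed for neither, since Pomc and Cga then gave r = 0.774 and rho = 0.675 (adjusted permutation p = 0.0213 and 0.042). For Pomc and Cga this r was 0.896 in the libraries with 5xFAD and 0.154 in those without. It was 0.587 without the 2 libraries farthest on that scale, and both genes were highest in 5EL replicate 1. Over the values themselves Pomc and Cga gave r = 0.669 and rho = 0.643 (adjusted permutation p = 0.106 and 0.107). The rho of their deviations has the limit given for Cga above. Oxt and Pmch gave r = 0.275 and rho = 0.304 (adjusted permutation p = 0.732 and 0.677), with -0.156 without the 2 farthest libraries, 0.224 with 5xFAD and 0.503 without. Oxt and Gh gave r = 0.031 and rho = 0.068 (adjusted permutation p = 0.996 and 0.924), with 0.281 without the 2 farthest libraries. For Oxt and Gh r was -0.448 within the 9 libraries with 5xFAD and 0.909 within the 6 without, where ELKO replicate 1 was highest in both.

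**Figure D4:**
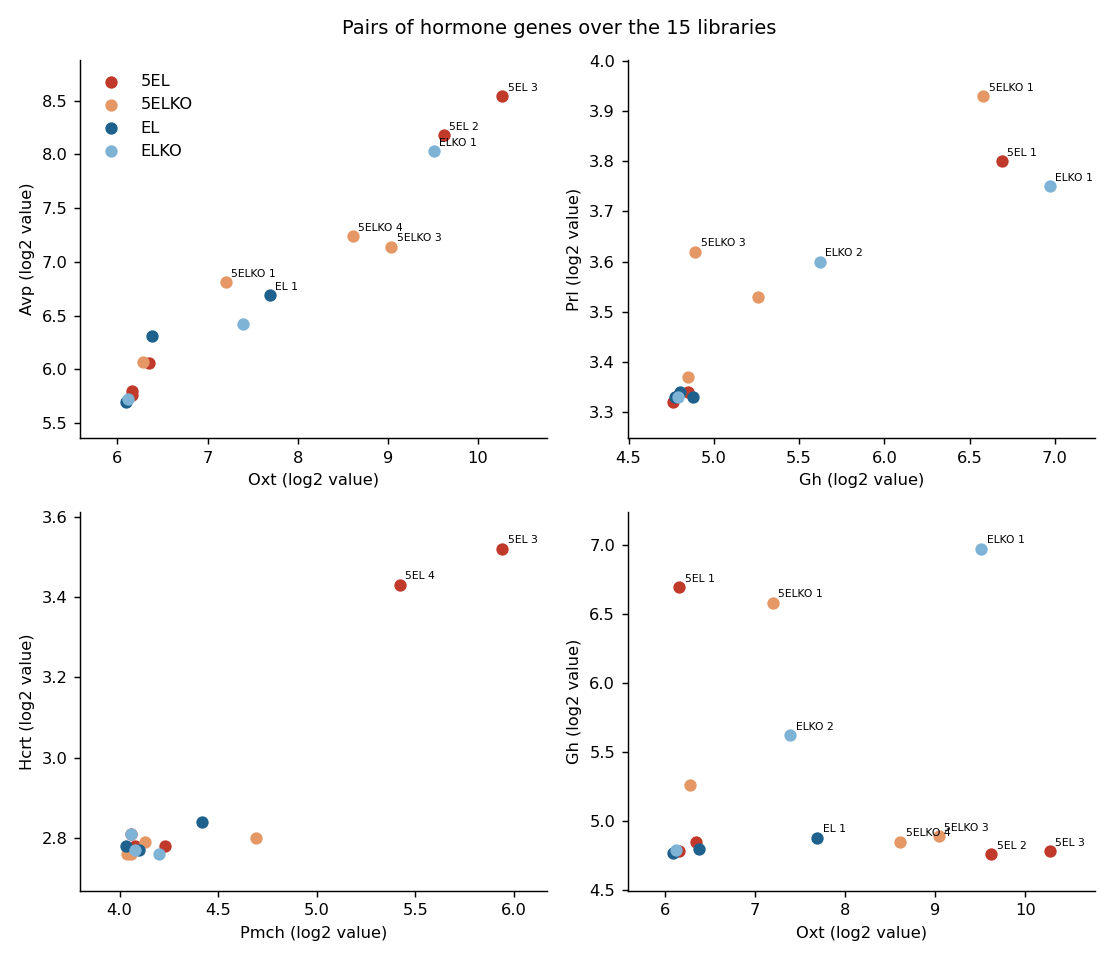
Log2 values of 4 pairs of genes in the 15 libraries (points, coloured by genotype, with the higher libraries named). Oxt and Avp rise together along a line, Gh and Prl are high in the same libraries, Pmch and Hcrt are high in 5EL replicates 3 and 4 only, and Oxt and Gh are both at least 1 above their lowest library in ELKO replicate 1 and 5ELKO replicate 1.

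Between genotypes no hormone gene passed the test. Deletion of Lilrb4a in 5xFAD mice was compared first, with limma over the 15743 genes that passed the filter in the 9 libraries. Of the 8 members tested, 0 passed an adjusted p of 0.05, against 3 genes or 0.0191% of all, 0 had a nominal p under 0.05, against 2.49% of all, and 0 had groups that did not overlap, against 1.06% of all. Oxt differed by 0.07 (SE 0.89, 95% interval -1.87 to 2.02, adjusted p = 0.999), and Pmch by -0.52 (SE 0.35, interval -1.28 to 0.24, adjusted p = 0.999). Gh differed by 0.22 (SE 0.42) and Prl by 0.19 (SE 0.12), each with an adjusted p of 0.999. The interval for Oxt spans changes of several fold either way, so a difference of that size could not be seen. Without 5EL replicate 1 the Prl difference was 0.28 with a nominal p of 0.00914 (limma adjusted p = 0.9997, with 3.06% of all genes at a nominal p in that fit), and Oxt turned to -0.32.

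Deletion of Lilrb4a without 5xFAD was compared in the fit of all 15 libraries and 15804 genes. Of the 8 members, 0 passed an adjusted p of 0.05 (0.0% of all genes) and 0 a nominal p of 0.05 (2.35% of all), and 0 had groups apart (4.59% of all). Gh was 0.97 higher in ELKO (SE 0.57, interval -0.24 to 2.18, adjusted p = 0.998) and Oxt 0.95 higher (SE 1.13, interval -1.45 to 3.36, adjusted p = 0.998). With the replicate number as a block, 2 of 8 members had a nominal p under 0.05, Gh at 0.00974 and Prl at 0.0295, against 2.77% of all genes in that fit, with a limma adjusted p of 0.964 for both. Without ELKO replicate 1, the library high in mouse Apoe, Gh differed by 0.39 and Oxt by 0.04. The labels do not say whether the libraries of a group came from separate mice. For 5EL and 5ELKO the paper lists each sequenced sample under its own number and states that samples were picked at random from such mice. It says nothing of this for EL and ELKO, so p-values measure the spread between these libraries.

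The libraries with and without 5xFAD were compared next, using the same libraries as above, so that each group serves in 2 comparisons. For 5EL minus EL, 0 of 8 members passed an adjusted p of 0.05 (0.0% of all genes) or a nominal p of 0.05 (7.7% of all), and 0 had groups apart (3.26% of all). Oxt was 0.995 higher in 5EL (SE 1.01, interval -1.16 to 3.15, adjusted p = 0.731), Trh 0.57 (SE 0.34, interval -0.16 to 1.30) and Pmch 0.56 (SE 0.35, interval -0.18 to 1.30). Without 5EL replicate 3 these differences were 0.36 for Oxt, 0.38 for Trh and 0.27 for Pmch, and without EL replicate 3 they were 0.68, 0.39 and 0.49. For 5ELKO minus ELKO the counts were 0, 0 and 0 of 8 members, against 0.0%, 2.37% and 3.4% of all genes, and the differences ran from -0.40 for Gh to 0.31 for Trh. The interaction, which compares the effects of the deletion with and without 5xFAD, also had 0 of 8 members at an adjusted p (0.0% of all genes) or a nominal p of 0.05 (2.73% of all). Its lowest nominal p among the members was 0.323, for Gh.

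**Figure D5:**
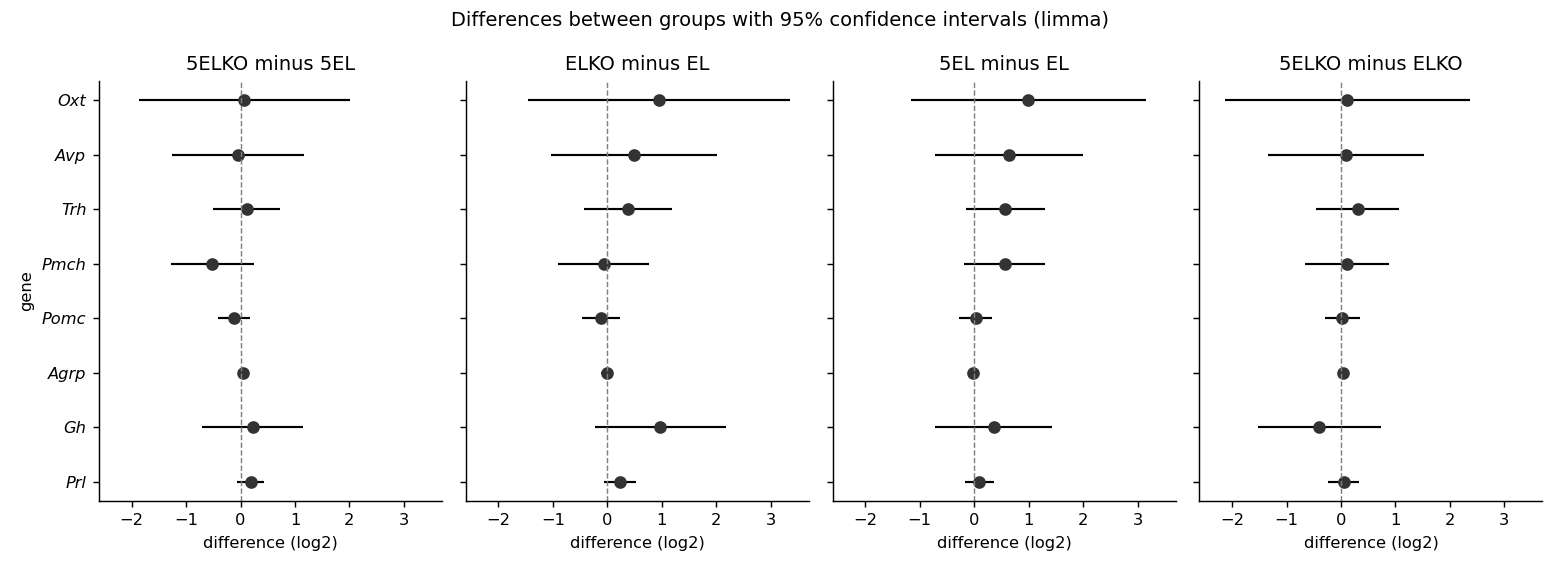
Differences between genotypes (points) with 95% confidence intervals from limma, in log2, for the 8 hormone genes tested in 4 comparisons. Each interval crosses 0, and those of Oxt, Avp and Gh are the widest.

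The other genes of these regions were described by lists. Of 15 hypothalamic transcription factors, 7 passed the filter, among them Otp (4.63 to 5.69), Sim1 (3.68 to 4.22) and Fezf1 (3.20 to 3.71). Otp, which specifies paraventricular neurons, was highest in 5EL replicate 2 (5.69), ELKO replicate 1 (5.68) and 5ELKO replicates 3 and 4 (5.40 and 5.38), 4 of the 5 libraries high in Oxt. Rax, Six6, Hmx2, Hmx3 and Nr5a1 had ranges under 0.1. Of 12 further pituitary genes 3 passed the filter (Dlk1, Gata2 and Tshb), and 7 had ranges under 0.1, among them Fshb, Pou1f1, Tbx19, Pitx1, Ghrhr and Gnrhr. Pou1f1, the factor that drives Gh and Prl, was -1.008 in ELKO replicate 1, -1.016 in 5ELKO replicate 1 and -1.029 in 5EL replicate 1, 5ELKO replicate 2 and ELKO replicate 2, and -1.041 or -1.042 elsewhere. These 5 libraries were the 5 highest in Gh, at a range too narrow to test, and Pou1f1 was named after its values were seen. Of the 3 genes that passed the filter, Tshb (5.42) and Dlk1 (9.24) were highest in 5EL replicate 4, and Gata2 (7.21) in ELKO replicate 3. Those libraries are outside these 5, while the next highest for Gata2, 5EL replicate 1 and ELKO replicate 1, are among them.

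Of 19 receptor genes for these hormones 12 were tested, and 12 of 12 prohormone processing genes. At an adjusted p of 0.05, 0 genes of these lists passed in each of the 5 comparisons. At a nominal p, the receptors Hcrtr2 (0.30), Trhr (0.30) and Mc4r (0.16) were higher and the chaperone Scg5 (-0.19) lower in 5EL than in EL, with an adjusted p of 0.631 for each, and Mc4r was lower in 5ELKO than in 5EL (-0.13, limma adjusted p = 0.999). Median differences of the members were 0.06 for 5ELKO minus 5EL, 0.30 for ELKO minus EL, 0.46 for 5EL minus EL, 0.07 for 5ELKO minus ELKO and -0.36 for the interaction, against -0.002 to 0.003 over all genes. In 5EL minus EL, 6 of 14 thalamus genes were lower at a nominal p (3.88% of all genes) and 5 of 12 genes of the reticular thalamus and zona incerta higher (3.82% of all), and 0 of either at an adjusted p of 0.05. EL replicate 3 moved with these counts, with Gad2 at 8.65 against a median of 10.99 over all libraries and the highest Prkcd at 14.72. Without it 2 of 14 thalamus genes were lower (1.13% of all) and 1 of 12 reticular genes higher (1.11% of all), and 0 of 12 receptors and 0 of 12 processing genes had a nominal p under 0.05.

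The members were set beside the mean of 7 marker lists over the 15 libraries, 56 relations in all. Trh with the reticular thalamus and zona incerta was the only relation that passed for r (r = 0.795, adjusted permutation p = 0.0162), while its rho of 0.689 did not (adjusted permutation p = 0.105), and r was 0.850 without the 2 farthest libraries, 0.696 with 5xFAD and 0.829 without. Oxt gave r = -0.684 with the thalamus list and r = 0.583 with the reticular list (adjusted permutation p = 0.115 and 0.122), with -0.778 and 0.529 in the libraries with 5xFAD and -0.464 and 0.705 in those without. The relay markers were lowest in 5EL replicate 2, a library high in Oxt. With the hypothalamic transcription factors Oxt gave r = 0.564 (adjusted permutation p = 0.13). Its r was 0.578 with habenula, 0.523 with cortex and hippocampus and 0.521 with striatum (adjusted permutation p = 0.122, 0.16 and 0.16). With the choroid plexus list it was -0.072 (adjusted permutation p = 0.905). The r of Oxt with the hypothalamic list was thus of like size to that with lists of other regions. Gh gave r = 0.211 with the thalamus list (adjusted permutation p = 0.743), with 0.663 in the libraries with 5xFAD and -0.567 in those without.

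The tested genes most like Oxt over the 15 libraries were Ucn3 (r = 0.913), Stk33 (0.879), Otp (0.871), Ece2 (0.866) and Crh (0.858). Those most like Avp were Ucn3 (0.920), Crh (0.886), Ece2 (0.872), Ppp1r17 (0.859) and Otp (0.844). Those most like Trh were Dmkn (0.896), Ucn3 (0.893), Itga2b (0.881), Gem (0.875) and Cckar (0.863). Crh encodes corticotropin-releasing hormone and Ucn3 a related peptide. For Gh the closest gene was Ambra1 (0.814), for Prl Srf (0.840), for Pomc Fam124a (0.839) and for Agrp Vps13a (0.870). These values are the highest of 15803 other genes and describe likeness only.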

How the data were processed

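Bulk RNA-seq of the thalamus gave 15 libraries, grouped by the genotype in the labels. Values of 29659 genes in each library were deposited on a log2 scale, and the transform is not given in the sources used here. According to the methods and the submitters' processing notes, reads were checked with FastQC 0.11.9, trimmed with Trimmomatic 0.39, aligned to GRCm38 with HISAT2 2.2.1, sorted with SAMtools 1.16.1 and counted as read pairs over exons by gene name, without strand, with featureCounts 2.0.3, and DESeq2 1.38.3 was used for differential expression. Depth per gene is unknown, so no counting interval could be given. None of the 105 pairs of libraries held identical values.

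Differences were tested with limma 3.58.1 in R 4.3.3 (lmFit, eBayes with trend) and Benjamini-Hochberg adjustment over all genes at a log2 value of 3.32 (10 on the linear scale) or more in at least 4 of 9 libraries (5ELKO minus 5EL) or 3 of 15 (other comparisons). Hcrt and Cga did not pass, so 8 of 10 members were tested. On simulated data with 200 genes changed by 1, 99.5% were recovered over 15743 genes with 3.865% false calls (5ELKO minus 5EL), and 99.5% over 15807 genes with 2.927% (5EL minus EL). The changed genes were drawn only from genes with a small SD within groups. Oxt, Avp, Gh, Pmch and Trh were too uneven to be drawn, so these shares do not hold for them. Relations used 100000 permutations (numpy 2.4.6, scipy 1.17.1, Python 3.11.15). Figures were drawn with matplotlib 3.10.9. Coordinates are from GENCODE on GRCm38, to which 28214 symbols matched, and promoters from RefSeq, with an entry for 8 of 10 members.

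The members and lists were chosen with earlier results of these data known. Genes named are the members, up to 4 genes per list with the widest range, the 5 genes most like each tested member of which some are printed, Lilrb4a and mouse Apoe; low pituitary genes, list genes at a nominal p, Parpbp and genes that overlap members were named after their values were seen. Some genes under this rule are not reported here. For EL and ELKO libraries with the same number, deviations from the group means correlated at 0.453, 0.325 and 0.742. Libraries with different numbers were not compared, so these values do not show that the numbers pair the libraries. No source says what the numbers share. The alternatives were no or a stricter filter, no trend, robust estimation, a replicate block, median centring, quantile normalization, all 15 libraries, leaving out each library, and leaving out the libraries high in choroid plexus genes. Leaving out the library high in mouse Apoe, and the list counts without EL replicate 3, were chosen after seeing the data.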

Additional observations from a re-analysis of the deposited data

Results flagged for a closer look

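In groups of 4 or 5 libraries, 5 of 20 sets of values had 1 library well away from the rest. About 1 in 20 independent, normally spread sets would. Here the sets share libraries, several of the genes moved together, and Prl and Cga sit on a floor. The count therefore cannot be set against that share. For each, the gap to the nearest library is given as a share of the whole range of the group. In 5EL replicate 1 this share was 0.95 for Gh (6.69 against 4.76 to 4.85), 0.972 for Prl (3.80 against 3.32 to 3.34), 0.983 for Cga (-0.68 against -0.72) and 0.759 for Pomc (6.04 against 5.25 to 5.44). All are genes of the pituitary, and Ttr was 13.71 in the same library, whose part in this was not tested. In 5ELKO replicate 1 the share was 0.862 for Pmch (4.69 against 4.04 to 4.13).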

How the results depend on the processing

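No member passed an adjusted p of 0.05 in any of the 515 alternative values of 32 member differences (lowest 0.346), and 12 of the 32 kept 1 direction. The cause of each change below was not tested. For 5ELKO minus 5EL, the genes at an adjusted p numbered 1 with no filter, 1 with the replicate block and 0 with all 15 libraries, against 3, and 0 to 4 with 1 library left out. Members at a nominal p numbered 1 with the replicate block (2.44% of all genes) and 1 without the choroid plexus libraries (3.06%), and 0 to 1 with 1 library left out (1, Prl, without 5EL replicate 1 or 5ELKO replicate 4). For ELKO minus EL they numbered 2 with the replicate block (2.77%) and 0 to 2 with 1 left out (2 without ELKO replicate 3, with 8.72% of all genes), with 0 to 1 genes at an adjusted p. For 5EL minus EL, members numbered 2, Trh and Hcrt, without the choroid plexus libraries, where Hcrt passed the filter (6.79%), and 0 to 1 with 1 left out (5EL replicate 1, 6.99%), and genes at an adjusted p 1 with no filter and 0 to 31 with 1 left out (31 without EL replicate 1).

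Directions turned as follows. With the replicate block Oxt was -0.27 for 5ELKO minus 5EL. Without the choroid plexus libraries it was -0.32, Trh -0.081 and Pomc 0.018, for 5EL minus EL Pomc was -0.12, Prl -0.002 and Gh -0.025, and for 5ELKO minus ELKO Oxt was -0.031 and Avp -0.062. Without the library high in mouse Apoe, Avp was -0.16 for ELKO minus EL and Gh 0.19 for 5ELKO minus ELKO. The relation of Oxt and Gh was -0.058 over deviations from group means and -0.243 to 0.184 with 1 library left out, and that of Oxt and Pmch -0.2 to 0.485. With 1 library left out, 5ELKO minus 5EL ran from -0.35 to 0.71 for Oxt, -0.33 to 0.37 for Avp, -0.081 to 0.31 for Trh, -0.18 to 0.018 for Pomc and -0.17 to 0.60 for Gh. ELKO minus EL ran from 0.04 to 1.73 for Oxt, 0.39 to 1.47 for Gh, -0.16 to 0.99 for Avp, -0.14 to 0.0495 for Pmch, -0.19 to 0.0052 for Pomc and -0.048 to 0.023 for Agrp. 5EL minus EL ran from -0.12 to 0.15 for Pomc, -0.002 to 0.12 for Prl, 0.36 to 1.48 for Oxt, 0.22 to 0.91 for Avp, 0.27 to 0.73 for Pmch, -0.025 to 0.46 for Gh and -0.061 to 0.0101 for Agrp. 5ELKO minus ELKO ran from -0.66 to 1.03 for Oxt, -0.41 to 0.74 for Avp, -0.0153 to 0.67 for Trh, -0.041 to 0.18 for Pmch, -0.066 to 0.14 for Prl, -0.0035 to 0.051 for Pomc and -0.90 to 0.19 for Gh. The block changed no other count of members. For the other pairs of groups, the correlations of libraries with the same number ran from -0.32 to 0.228. The shrunken scale and groups of 3 to 5 libraries limit what can be seen in Prl, Hcrt, Agrp and Cga, and the intervals of Oxt, Avp and Gh are wide.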
